A study of Mus musculus with 24 samples.

Results

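Carriers, receptors and secreted proteins of the choroid plexus were followed in the hippocampus of neonatal mice through 8 genes: *Ttr*, *Kl*, *Folr1*, *Calml4*, *F5*, *Enpp2*, *Prlr* and *Sostdc1*. They were found by name, as every non-control probe of the Agilent array whose gene name was 1 of these 8 (of 36163 gene names), which gave 12 probes of 55681. *Ttr*, *Kl*, *Calml4* and *Enpp2* had 1 probe each, and *Folr1*, *F5*, *Prlr* and *Sostdc1* had a pair. Each gene is described by its first probe, the one with the higher mean over all arrays, and the second probes are treated separately below.

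RNA came from the pooled left and right hippocampi of male C57BL/6 mice on postnatal day 9, with 5 animals and 5 arrays in each group. Con pups were untreated (0 mg/kg morphine), stayed with the dam and were little handled. MS2 pups received morphine at 2 mg/kg and MS5 pups at 5 mg/kg, from postnatal day 5, and in both groups each dose came before an apnea exposure (nitrogen, then oxygen) and the pups were isolated from the dam in a warmer by day. Stress, apnea and injection came with morphine in both treated groups, so in comparisons with Con they cannot be told apart from the drug. Treated pups went back to a cage shared with untreated littermates, and litters are not named in the labels.

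The choroid plexus is a sheet of epithelium in the ventricles of the brain that makes cerebrospinal fluid and forms the barrier between blood and that fluid. A fold of it lies along the hippocampus in the lateral ventricle. Its cells make carriers for hormones and vitamins in very large amounts, bind circulating hormones, and release enzymes and antagonists of signalling into the fluid. In RNA from a whole dissected hippocampus, fewer plexus cells and less RNA per cell cannot be told apart.

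The array reads each gene through 60-base DNA probes. The sequences of 4 probes that lie in coding sequence are shown, 5′ to 3′ in the sense of the mRNA, since they say which stretch of each transcript gave the values that follow. Capitals mark a stop codon, present in the *Enpp2* probe, which therefore reads the very end of the coding sequence. The *Calml4* probe and the second *F5* probe cover 4082 and 2189 bases of the genome with 60 bases of mRNA, so each is read across an intron. Positions are those of the array's design (mm9).
Calml4, chr9:62719231-62723312, plus strand: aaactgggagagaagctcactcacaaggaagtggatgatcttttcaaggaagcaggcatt
F5, second probe, chr1:166139728-166141916, plus strand: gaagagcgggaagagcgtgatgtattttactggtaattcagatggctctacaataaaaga
Enpp2, chr15:54670921-54670980, minus strand: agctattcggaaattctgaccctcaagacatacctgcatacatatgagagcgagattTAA
Prlr, second probe, chr15:10255629-10255688, plus strand: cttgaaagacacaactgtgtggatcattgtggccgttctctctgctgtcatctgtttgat

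All values below are the deposited levels in log2 of intensity after background adjustment and quantile normalization, and a change is a difference of group means on that scale. The median spot signal of the 15 arrays ranged from 58.15 to 153.6, 67.07% to 78.98% of spots were well above background, and 0 spots were saturated. In all, 4 arrays stood apart from their labels or groups. MS2 replicate 5 was the dimmest, with a median spot signal of 58.15 against 120.9 to 153.6 on the other arrays, and had the fewest spots well above background (67.07%). On MS5 replicate 9, labelled male like all others, *Xist*, the RNA of the inactive X chromosome, was at 11.34 against 5.89 to 6.08 on the 14 other arrays, and the Y-linked *Ddx3y* was at 6.24 against 11.32 on Con replicate 15. On MS2 replicate 4 the mean of 13 markers of hippocampal neurons was 10.50, against 12.28 to 12.70 on the other arrays, and the mean of 14 markers of hypothalamus and thalamus was 11.39, against 8.75 to 10.04. MS5 replicate 14 kept its hippocampal markers (12.43) but had the lowest plexus markers: the mean of 34 plexus genes outside the 8 was 9.23 there, 9.71 on MS5 replicate 9, and 10.48 to 11.51 on the other arrays.

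The study's own threshold decided the calls: a probe was called when its fold change exceeded 1.5 and limma gave it an unadjusted p below 0.05. Between the MS5 and Con groups 6 of the 8 genes were called lower, *Folr1*, *Calml4*, *Sostdc1*, *F5*, *Enpp2* and *Kl*, and 9 of the 12 probes. Among all 55681 probes 0.183% were called lower in this comparison. The study had already reported *Calml4*, *Folr1*, *Kl* and *F5* as lower in MS5, and the members were chosen with such results known. The count is therefore not independent of these data. The median change of the 8 genes was -1.15, whereas that of all probes was 0.00036, and 49.8% of all probes had a lower mean in the MS5 group. None of the 8 genes passed adjustment over all probes (adjusted p = 1.00 in limma for each), where 0 of the 55681 probes passed and 2173 had an unadjusted p under 0.05. By position among all 55681 probes ordered from the lowest change, *Folr1* stood 2nd, *Ttr* 9th and *Calml4* 11th, and the first probes of *Sostdc1*, *F5*, *Enpp2* and *Kl* stood 30th, 32nd, 38th and 40th.

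**Figure D1:**
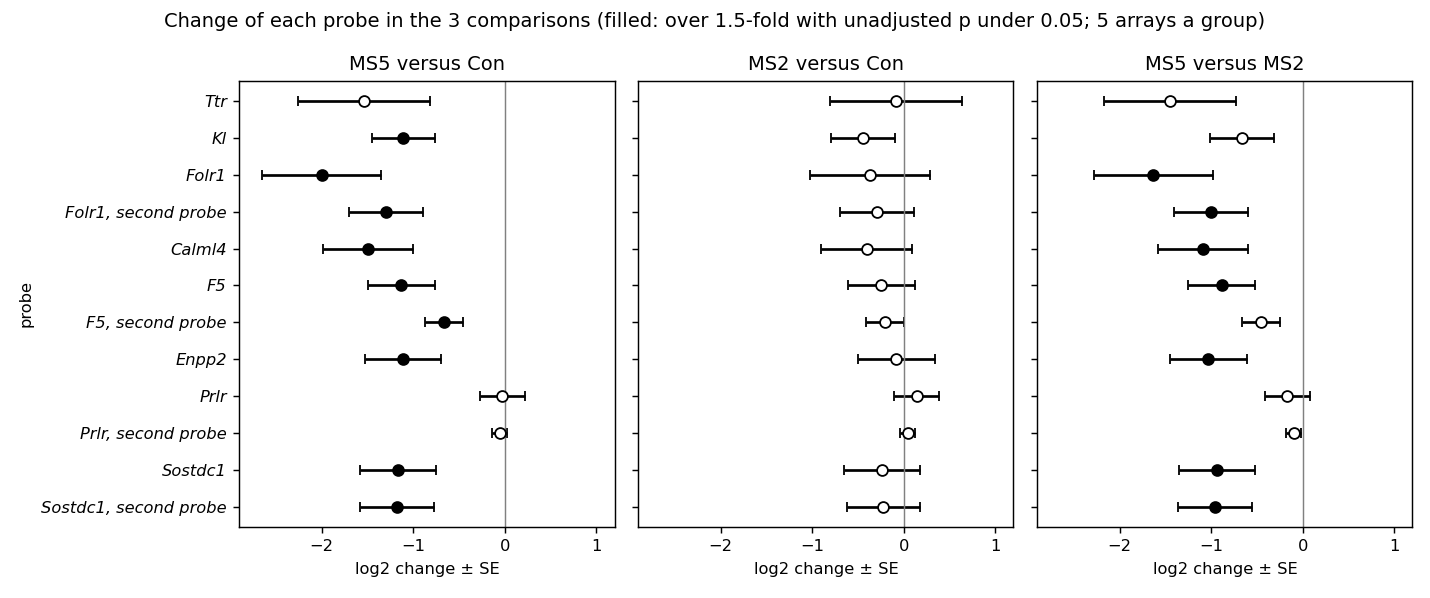
Change of each of the 12 probes (log2, horizontal axis, point and bar: estimate ± SE from limma) in the 3 comparisons, with filled points for called probes. In MS5 versus Con 9 points are filled, in MS2 versus Con 0 and in MS5 versus MS2 7, and the *Prlr* points lie near 0 in each panel.

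The carriers came first. *Ttr* encodes transthyretin, which carries thyroxine and, through retinol-binding protein, retinol, and it is the classical abundant transcript of the choroid plexus. It lay at 17.66, 18.15, 18.13, 17.88 and 17.92 on Con replicates 15 to 19. On the MS5 arrays it lay at 17.89, 15.93, 17.92, 17.50 and 12.84 (replicates 8, 9, 12, 13 and 14). The first and the third of these MS5 arrays were inside the control range, and replicate 14 was at -5.11 relative to the control mean. Quantile normalization sets a level by the rank of the probe on its array, and from the brightest probe down *Ttr* stood between places 22 and 68 of 55681 on the control arrays, at place 780 on MS5 replicate 9 and at place 5338 on MS5 replicate 14. The group means were 17.95 ± 0.20 in Con and 16.41 ± 2.16 in MS5 (SD, n = 5), a change of -1.54 ± 0.72 (SE, limma p = 0.0509, exact permutation p = 0.0873). *Ttr* was therefore not called, although its change was the second largest of the 8. Its MS5 spread was 10.7 times that of the controls.

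*Folr1*, the folate receptor alpha that moves folate across the plexus epithelium into the fluid, had the largest change of the 8 genes. Its control arrays lay at 13.09, 14.41, 14.17, 13.61 and 14.03. Its MS5 arrays lay at 13.34, 10.87, 13.45, 12.55 and 9.09 in the same order of replicates as for *Ttr*. Of the MS5 arrays, 3 were below every control array and all 5 were below the control mean. The mean fell from 13.86 ± 0.52 to 11.86 ± 1.86 (SD, n = 5), a change of -2.00 ± 0.65 or 4.01-fold (SE, limma p = 0.00812, exact permutation p = 0.0317).

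A membrane protein and an intracellular one followed. *Kl* encodes Klotho, a coreceptor for fibroblast growth factor 23 that is also shed into blood and fluid. Its level was 10.08, 10.82, 11.02, 10.27 and 10.40 on the control arrays and 10.01, 8.65, 10.26, 9.83 and 8.29 on the MS5 arrays (chr5:151795712-151795771, mm9). Of the 5 MS5 arrays 4 were below all controls, and replicate 12 lay among them. *Kl* fell from 10.52 ± 0.39 to 9.41 ± 0.88 (SD, n = 5), a change of -1.11 ± 0.35 (SE, limma p = 0.00635, exact permutation p = 0.0159). *Calml4* encodes a calmodulin-like protein known from the links between microvilli. It was at 11.01, 12.19, 12.08, 11.45 and 11.74 in controls and at 11.35, 9.05, 11.35, 10.74 and 8.51 in the MS5 group, where 3 of 5 arrays were below all controls. It fell 2.82-fold, a change of -1.49 ± 0.49 (SE, limma p = 0.00885, exact permutation p = 0.0317).

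The transcripts of 3 secreted proteins fell by similar amounts. *Enpp2* encodes autotaxin, the secreted enzyme that makes lysophosphatidic acid. It ranged from 14.95 to 15.96 on the control arrays and was at 15.28, 13.50, 15.34, 14.55 and 12.75 on the MS5 arrays, 3 of which were below all controls. It fell, with a change of -1.11 ± 0.42 (SE, limma p = 0.0183, exact permutation p = 0.0794). *F5* encodes coagulation factor V. Its levels were 8.67 to 9.55 in controls and 8.74, 7.23, 9.14, 8.40 and 6.79 in the MS5 group, and it fell, with a change of -1.13 ± 0.37 (SE, limma p = 0.00767, exact permutation p = 0.0397). *Sostdc1* encodes a secreted antagonist of BMP and Wnt signals. Its levels were 11.54 to 12.27 in controls and 11.46, 9.78, 11.95, 10.86 and 9.40 in the MS5 group, and it fell, with a change of -1.17 ± 0.42 (SE, limma p = 0.0135, exact permutation p = 0.0556). Replicate 12 lay inside the control range for all 3 of these genes.

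*Prlr*, the receptor for prolactin, did not share this pattern. Its control levels were 8.47, 8.45, 9.02, 8.24 and 8.69 and its MS5 levels 8.56, 8.28, 8.59, 8.18 and 9.13, so the groups overlapped almost completely. The change was -0.03 ± 0.25 (SE, limma p = 0.912, exact permutation p = 0.905). MS5 replicate 14, where the other 7 genes were lowest, had the second-highest *Prlr* level of the 15 arrays. The highest, 9.60, was on MS2 replicate 4, the array with low hippocampal and high hypothalamic and thalamic markers. Whether tissue content moved *Prlr* was not tested.

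**Figure D2:**
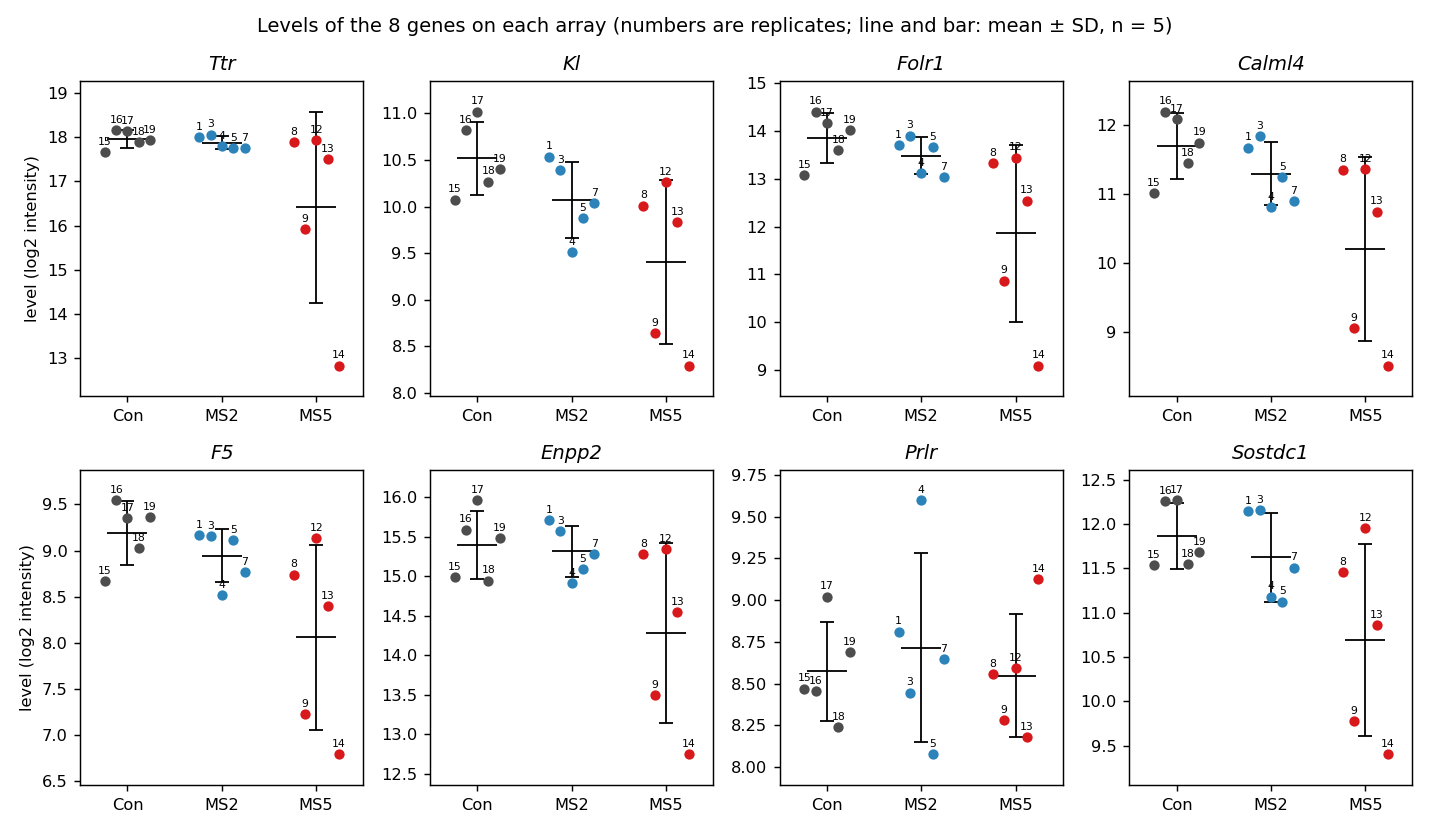
Level of each gene (log2 intensity, vertical axis) on every array of the Con, MS2 and MS5 groups by its first probe, with replicate numbers beside the points and the mean ± SD of 5 arrays as line and bar. Replicates 9 and 14 are the 2 lowest MS5 arrays for 7 genes, and replicate 14 is the highest MS5 array for *Prlr*.

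The changes did not come from the 5 MS5 arrays alike. Of the 8 genes, 0 had all 5 MS5 arrays below all 5 control arrays. Among all probes the share was 0.519%, so this count of 0 does not set the members apart. For *Ttr*, *Kl*, *Folr1*, *Calml4*, *F5*, *Enpp2* and *Sostdc1* alike, replicate 14 was the lowest of the 15 arrays and replicate 9 the second lowest. Averaged over the 8 genes, each relative to its control mean, replicate 14 was at -2.78, replicate 9 at -1.97, replicate 13 at -0.80, replicate 8 at -0.30 and replicate 12 at -0.13. The control arrays ranged from -0.44 to 0.37 and the MS2 arrays from -0.45 to 0.09 on the same measure. Thus 3 MS5 arrays were below every control and MS2 array, and the others lay among them. In the MS5 group the SD of those 7 genes was 2.24 (*Kl*) to 10.7 (*Ttr*) times the control SD.

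**Figure D3:**
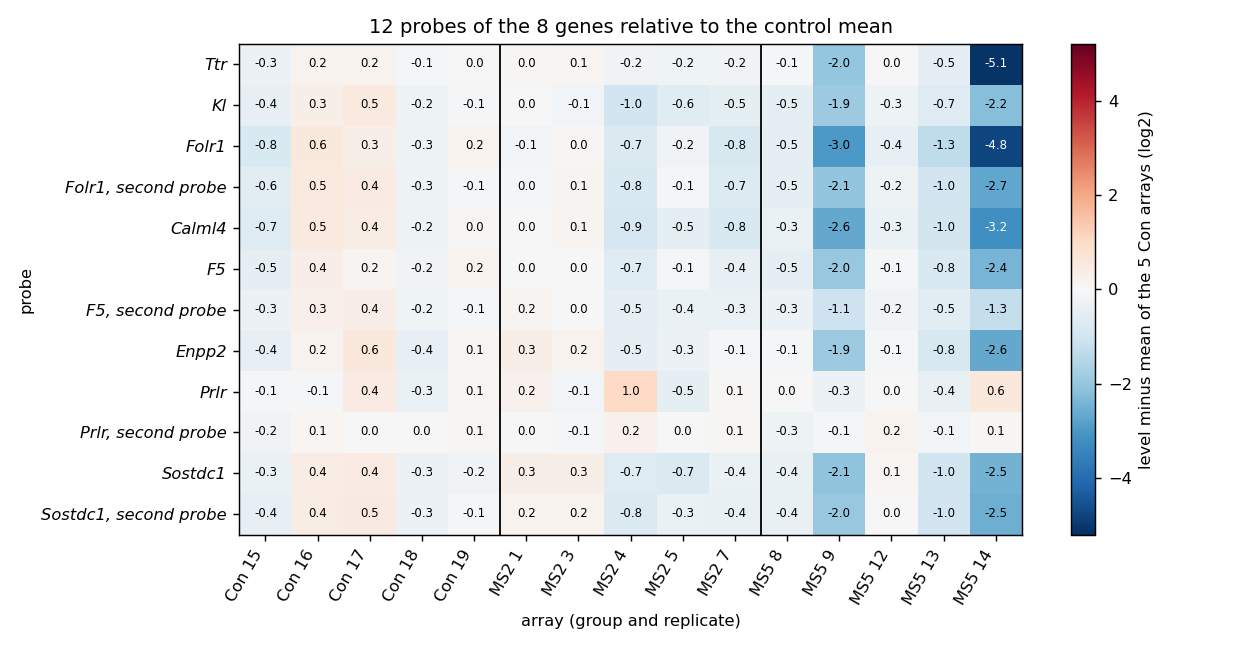
Level of each of the 12 probes (rows) on each of the 15 arrays (columns, group and replicate) minus the mean of the 5 control arrays, in log2. The columns of MS5 replicates 9 and 14 are the darkest in every row but those of *Prlr*, with -5.1 for *Ttr* and -4.8 for *Folr1* on replicate 14.

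Because MS5 replicate 9 did not match its label, the count was also taken without it. Then 5 of the 8 genes were called lower, with *Enpp2* at -0.91 no longer past the threshold, and *Folr1*, *Kl*, *Calml4*, *F5* and *Sostdc1* still called. Without MS5 replicate 14, 6 genes were called lower, with smaller changes than with all arrays: -1.31 for *Folr1*, -0.83 for *Kl*, -1.07 for *Calml4*, -0.81 for *F5*, -0.73 for *Enpp2* and -0.85 for *Sostdc1*. *Ttr* depended most on this array, with a change of -0.64 without it. Without MS5 replicate 12, in turn, *Ttr* was at -1.91 and was called, which made 7 of 8, and 7 were also called without MS5 replicate 8 or 13.

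The arrays lay on 2 slides that each held all 3 groups, and replicates 9, 12 and 14 of MS5 were on slide 2. Within slide 1 (2 MS5 and 3 Con arrays) *Folr1* differed by -0.68, *Sostdc1* by -0.62, *Kl* by -0.53, *Calml4* by -0.47, *F5* by -0.45, *Enpp2* by -0.38, *Prlr* by -0.21 and *Ttr* by -0.20. Within slide 2 (3 MS5 and 2 Con arrays) the differences were -3.08 for *Folr1*, -2.48 for *Ttr*, -2.33 for *Calml4*, -1.73 for *F5*, -1.67 for *Enpp2*, -1.60 for *Sostdc1*, -1.54 for *Kl* and 0.09 for *Prlr*. The direction was thus lower on both slides for 7 genes, and the size was 2.56 (*Sostdc1*) to 12.5 (*Ttr*) times larger on slide 2. With slide as a term in the model 6 genes were still called lower.

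At the lower dose the median change was smaller. Between the MS2 and Con groups 0 of the 8 genes were called. Among all probes 0.00718% were called lower, so this count of 0 does not set the members apart. In all, 2324 of all probes had an unadjusted p under 0.05. Of the 8 means, 7 were lower in MS2, with a median change of -0.24. *Kl* had the largest difference, from 10.52 ± 0.39 to 10.07 ± 0.41 (SD, n = 5), a change of -0.44 ± 0.35 (SE, exact permutation p = 0.127). Next were *Calml4* at -0.41 (exact permutation p = 0.198) and *Folr1* at -0.37 (exact permutation p = 0.238). *Ttr* differed by -0.08 and was at 17.75 to 18.05 on the MS2 arrays. The MS2 arrays overlapped the controls for each gene, and replicates 1 and 3 lay within the control range for all 8. The lowest MS2 value of each gene was on replicate 4, 5 or 7. Within slide 1 the differences of the 8 genes ran from -0.13 (*Kl*) to 0.22 (*Enpp2*), and within slide 2 from -0.94 (*Calml4*) to 0.27 (*Prlr*). Between these on slide 2 (2 MS2 and 2 Con arrays) lay *Kl* at -0.91 and *Folr1* and *Sostdc1* at -0.82. *F5* was at -0.64, *Enpp2* at -0.53 and *Ttr* at -0.27 there. Without MS2 replicate 4 the change of *Kl* was -0.31, and *Prlr* went from 0.14 to -0.079. Without MS2 replicate 5, *Prlr* was at 0.30. In both cases 0 of the 8 genes were called.

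Both treated groups had the stress protocol, so MS5 versus MS2 compares the doses. Of the 8 genes 5 were called lower in MS5, *Folr1*, *Enpp2*, *Calml4*, *Sostdc1* and *F5*, against 0.111% of all probes, with a median change of -0.98. *Folr1* was at 13.49 ± 0.38 in MS2 and differed by -1.63 ± 0.65 (SE, limma p = 0.0250, exact permutation p = 0.0635). *Enpp2* differed by -1.03 (exact permutation p = 0.0794), *Calml4* by -1.09 (0.151), *Sostdc1* by -0.93 (0.143) and *F5* by -0.88 (0.0794), each by the same exact test. *Ttr* differed by -1.45 and *Kl* by -0.66, and neither was called. None of the 8 had an adjusted p below 1.00 in limma. Within slide 1 the differences ran from -0.78 (*Sostdc1*) to -0.24 (*Ttr*), and within slide 2 from -2.26 (*Folr1*) to -0.17 (*Prlr*). The count of 5 called genes was not firm: it was 0 when only the MS2 and MS5 arrays entered the model, 3 with slide as a term, and 0 without MS2 replicate 3, without MS5 replicate 9 or without MS5 replicate 14. It was 1 without MS2 replicate 1, 3 without MS2 replicate 5, 6 without MS2 replicate 4, and 7 without MS5 replicate 8 or 12.

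In all 7 genes other than *Prlr* the group means ran in the order Con, MS2, MS5 from high to low. Neighbours in this order were not set apart by the exact test, which gave no p under 0.127 between Con and MS2 and none under 0.0635 between MS2 and MS5. For *Prlr* the order was MS2, Con, MS5 (exact permutation p = 0.698 and 0.905 between neighbours).

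The pairs of probes gave a second reading of 4 genes. For *Sostdc1* the second probe (chr12:37044532-37044591, against chr12:37044197-37044256 for the first, mm9) changed by -1.18 where the first changed by -1.17, and over 15 arrays the pair had a Pearson r of 0.99. The *Folr1* probes differed in size. The first (chr7:109006846-109006905) changed by -2.00 and the second (chr7:109016972-109017031), which lies on the 5′ side of it on the minus strand, by -1.29 ± 0.40 (SE, exact permutation p = 0.0397). On MS5 replicate 14 the first probe was at -4.77 and the second at -2.69 relative to its own control mean. The gap between the probes shifted by 0.71 between MS5 and Con (exact permutation p = 0.0397, 0.159 after adjustment over the 4 pairs). With no offset in the background adjustment the changes were -2.04 and -1.57.

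The second *F5* probe, on the 5′ side of the first, changed by -0.67 ± 0.21 (SE, exact permutation p = 0.0397), against -1.13 for the first (chr1:166150216-166150275). Its levels were 6.03 to 7.64, and it was well above background on all Con and MS2 arrays but on 4 of the 5 MS5 arrays. The gap shifted by 0.46 (exact permutation p = 0.127, adjusted 0.254), and with no offset the changes were -1.29 and -1.40. The second probe lost its call without Con replicate 17, MS5 replicate 9 or MS5 replicate 14. Both *Prlr* probes were near 0: the second changed by -0.05 ± 0.08 (SE) against -0.03 for the first (chr15:10259066-10259125), and their r over 15 arrays was 0.53.

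**Figure D4:**
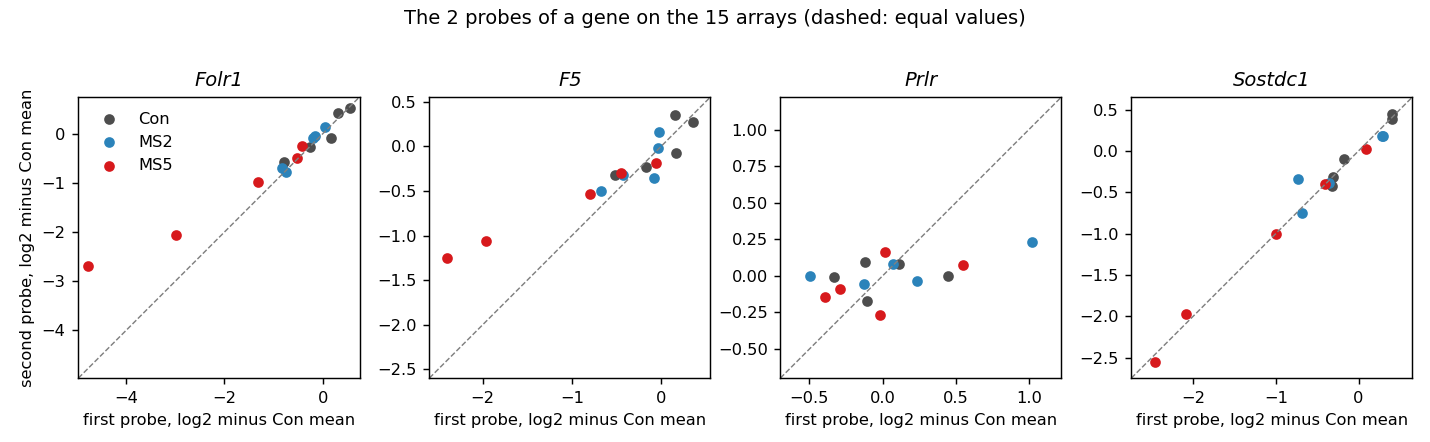
Second probe against first probe of *Folr1*, *F5*, *Prlr* and *Sostdc1* on the 15 arrays, each as level minus control mean in log2, with a dashed line at equal values. The *Sostdc1* points follow the line, while on the lowest MS5 arrays the second probes of *Folr1* and *F5* lie above it.

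The 7 genes also followed each other outside the MS5 group. Over all 15 arrays, the Pearson r of each gene with the mean of the other 7 was 0.91 (*Ttr*) to 0.99 (*Enpp2*), and that of *Prlr* was -0.14. These points share their array, and the 2 lowest MS5 arrays carry much of the range. Over the 10 Con and MS2 arrays alone, with group means removed, r was 0.96 for *Ttr*, 0.93 for *Calml4*, 0.92 for *Enpp2*, 0.91 for *Kl*, 0.87 for *Sostdc1*, 0.83 for *Folr1*, 0.80 for *F5* and -0.06 for *Prlr*. The untreated arrays show it in the levels themselves: Con replicate 15 was the lowest control for *Ttr*, *Kl*, *Folr1*, *Calml4*, *F5* and *Sostdc1*, and replicates 16 and 17 held the highest 2 control values of *Ttr*, *Kl*, *Folr1*, *Calml4*, *Enpp2* and *Sostdc1*.

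The 10 genes outside the 8 with the profile most like the mean of the members over the 15 arrays had a Pearson r of 0.985 to 0.996. They were *Wfdc2*, *1500015O10Rik* (*Ecrg4*), *Trpv4*, *Defb11*, *1110059M19Rik*, *Cldn2*, *Slc4a5*, *Kcnj13*, *Tex22* and an intergenic transcript. *Trpv4* and *Kcnj13* encode ion channels, *Cldn2* a tight-junction claudin, *Slc4a5* a sodium bicarbonate cotransporter and *Defb11* a defensin. Their changes between MS5 and Con lay between -1.11 (*Trpv4*) and -1.86 (the intergenic transcript). Over the 10 Con and MS2 arrays with group means removed their r was 0.88 to 0.98. These 10 arrays were among the 15 by which the genes were picked. Neither this r nor the changes are therefore independent of the pick.

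Other genes of the plexus epithelium moved with the members. Of 34 such genes, 21 were called lower in MS5 versus Con and 0 higher, 33 had a lower mean, and their median change was -0.78. Among all probes 0.183% were called lower and 49.8% had a lower mean. The list was drawn up with earlier results of these data known. Some of its genes, such as *Aqp1* and *Cldn2*, had already been reported as lower in MS5 by the study. The count is therefore not independent of these data. The smallest p in limma belonged to *Steap1*, a metalloreductase (-1.49, exact permutation p = 0.00794), *Wdr86* (-1.30, exact permutation p = 0.0159) and *Slco1a5*, an organic anion transporter (-0.71, exact permutation p = 0.0159). The defining water channel *Aqp1* was at -1.48 (exact permutation p = 0.0952). Without MS5 replicate 9 the count was 13, without MS5 replicate 14 it was 12 and without Con replicate 16 it was 13. In MS2 versus Con 0 of the 34 were called (median -0.17), where 0.00718% of all probes were called lower. In MS5 versus MS2 16 were called lower (median -0.67), where the share of all probes was 0.111%. That count was 4 without MS5 replicate 9 and 4 without MS5 replicate 14.

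Markers of neighbouring cells are given for the same arrays. Of 10 ependymal markers, which line the ventricles next to the plexus, 0 were called in MS5 versus Con, all 10 had lower means in both MS5 and MS2 than in Con, and the medians were -0.38 and -0.40 (*Foxj1* -0.39 in MS5). Their mean level was 9.71 to 10.65 on Con, 9.30 to 10.37 on MS2 and 9.15 to 10.58 on MS5 arrays, with MS5 replicate 9 lowest at 9.15 and MS5 replicate 14 at 9.51. Of 12 meningeal markers 0 were called (median -0.21, 10.33 to 11.54 on Con and 10.41 to 11.36 on MS5 arrays), and on MS5 replicate 9 their mean was 11.36. Of 13 hippocampal neuron markers 0 were called (median -0.13, *Prox1* -0.19), and on MS5 replicates 9 and 14 their means were 12.32 and 12.43 against 12.37 to 12.67 in controls. Of 13 oligodendrocyte markers 0 were called (median 0.14, *Mbp* 0.03), of 7 endothelial markers 0 (median -0.06) and of 6 blood markers 0 (median -0.39). Of 14 hypothalamic and thalamic markers 3 were called higher, the neuropeptides *Avp* at 2.53, *Trh* at 1.89 and *Oxt* at 1.79. That list was at 10.04, 8.93, 9.60, 9.32 and 9.79 on MS5 replicates 8, 9, 12, 13 and 14, against 8.75 to 9.11 in controls. All MS5 arrays but replicate 9 were thus above every control, including replicates 8 and 12, where the members were least changed. The part of tissue content in the members' changes was not tested.

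**Figure D5:**
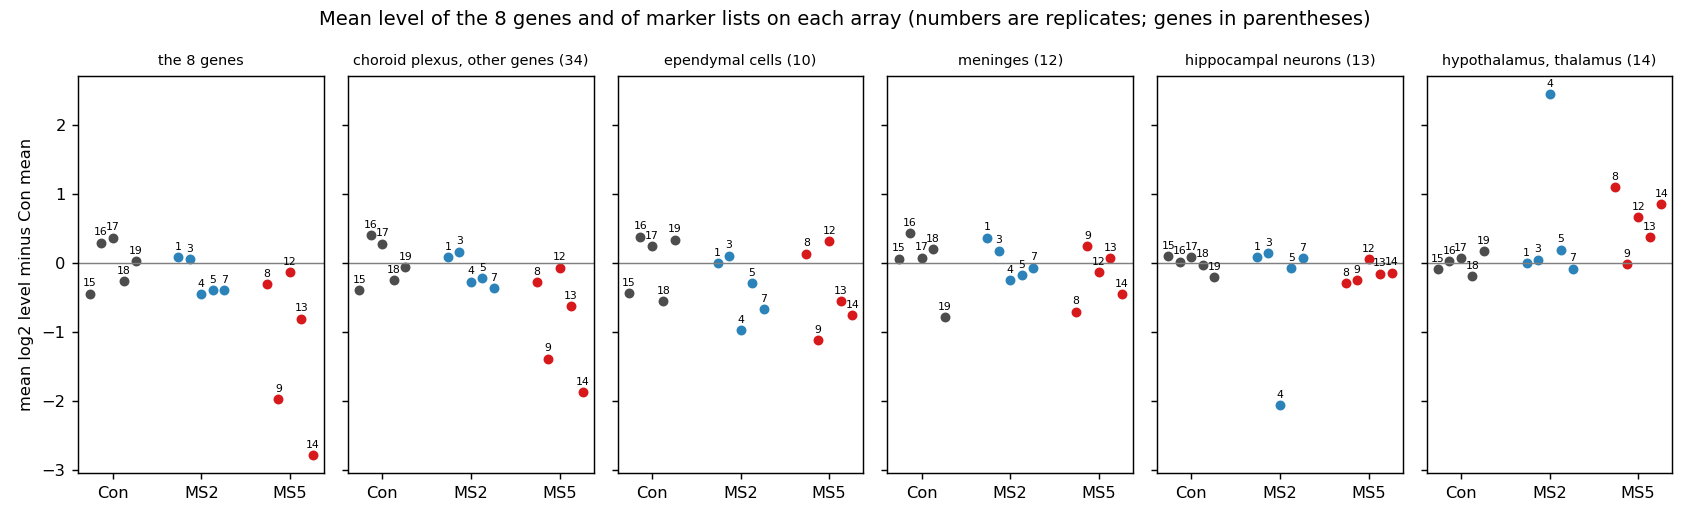
Mean log2 level of the 8 genes and of 5 marker lists on each array, minus the mean of the control arrays, with replicate numbers beside the points. The 8 genes and the other plexus genes share their 2 lowest arrays, MS5 replicates 14 and 9, the hippocampal neuron list is low on MS2 replicate 4 alone, and the hypothalamic and thalamic list is highest there.

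The molecular partners of the members were measured as 8 lists, and in MS5 versus Con 0 genes of any of these were called in either direction. Where a gene is named for a list, it is the one with the smallest p in limma. For transthyretin, 9 of 10 genes of thyroid hormone and retinol handling had a lower mean (median -0.08). For Klotho, 10 of 13 genes of its family and of FGF signalling were lower (median -0.06), with *Fgfr2*, an FGF receptor, at -0.19 (exact permutation p = 0.0397). For the folate receptor, 9 of 12 genes of folate uptake and use were lower (median -0.08), with *Ggh*, which trims folate polyglutamates, at -0.22 (exact permutation p = 0.00794). These shifts were all under 1.5-fold.

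Among 10 calmodulins and genes of microvillus adhesion 5 were lower and 5 higher (median -0.01), with *Calm3* at -0.14 (exact permutation p = 0.00794). Of 16 coagulation genes 8 were lower and 8 higher (median -0.0020), with *F13a1*, a subunit of factor XIII, at 0.35 (exact permutation p = 0.0635). In the lysophosphatidic acid list 10 of 14 were lower (median -0.04), with *Enpp1*, a relative of autotaxin, at -0.14 (exact permutation p = 0.222). Prolactin signalling had 5 of 10 lower (median -0.0072), with *Socs3*, a feedback inhibitor of cytokine receptors, at -0.25 (exact permutation p = 0.0159). The Wnt and BMP antagonism list had 6 of 16 lower (median 0.02), with *Grem1*, a BMP antagonist, at 0.18 (exact permutation p = 0.175). Beside the member median of -1.15, the 8 partner lists had medians between -0.08 and 0.02. Not all partners were well above background. On MS5 arrays 8 of 10 were for transthyretin, 10 or 11 of 13 for Klotho and 8 or 9 of 10 for *Calml4*. The counts were 13 or 14 of 16 for *Sostdc1*, 14 or 15 of 16 for *F5*, 9 or 10 of 10 for *Prlr* and all for *Folr1* and *Enpp2*. The offset draws changes of dim probes toward 0, so the medians say little about dim partners.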

How the data were processed

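The data are mRNA levels of 15 hippocampi on 1-colour Agilent arrays (mm9 design). The authors deposited scanner files with an intensity per spot (Feature Extraction 10.7.1.1) and a table of log2 values, background-adjusted by normexp and quantile normalized between arrays. Recomputing these log2 values from the deposited intensity with an offset of 50 gave the table at all 55821 probes with the first spot of each (largest difference 5.00e-09). The 12 member probes had 1 spot each. Quantile normalization sets the same distribution on every array, and the offset draws the changes of dim probes toward 0. The 9 miR arrays were not used.

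The table's values of 55681 non-control probes entered 1 fit of the 3 groups in R 4.3.3 (limma 3.58.1, with lmFit and eBayes), with Benjamini-Hochberg adjustment over all probes. Exact permutation tests were two-sided over the 252 assignments of 5 arrays against 5, so the smallest p was 0.00794. P-values measure the spread between animals, whose number limits the precision. The members and lists were chosen with earlier results of these data known. Named genes are the members, in each list up to 3 called genes with the smallest p (in partner lists without calls, the smallest p), the 10 genes most like the members, *Xist*, Y-linked genes, *Aqp1*, *Foxj1*, *Mbp* and *Prox1*. The gene that this rule picks in 1 partner list is not reported here. A gene with several probes was taken by the probe with the highest mean.

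On simulated data for MS5 versus Con over 55681 probes, 100% of 200 probes lowered by 1 (log2) were called and 38 unchanged probes were called lower. Of the 200, 97% passed adjustment, against 0 probes in the real data. The simulated noise was normal with an equal SD in all groups, and every MS5 array was lowered alike. In the real data the MS5 SD of the members other than *Prlr* was 2.24 to 10.7 times the control SD. The simulated rate therefore cannot be carried over to them. The alternatives were an offset of 0, scaling the scanner's processed signal to the 75th percentile of each array, averaged spots, dropping dim probes, array weights, slide as a term or alone, only the 2 groups compared, the mean of a gene's probes, and leaving out each array in turn. Applying these to the 34 other plexus genes was chosen after seeing the data.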

Additional observations from a re-analysis of the deposited data

Results flagged for a closer look

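In each group of 5 arrays, a value was singled out when its gap to the nearest other array exceeded a share of 0.71 of the range of the group (Dixon's criterion). Chance alone does this in about 1 of 20 groups. Of the 36 sets of member levels (12 probes in 3 groups) 0 met it. Of 36 sets of values of whole arrays (12 measures in 3 groups) 6 did. MS2 replicate 5 was at a median spot signal of 58.15, where the next MS2 array was at 144.2, and 67.07% of its spots were well above background, where the next was at 74.97%. MS2 replicate 4 was at 10.50 for the hippocampal neuron markers, where the next MS2 array was at 12.49, and at 11.39 for the hypothalamic and thalamic markers, where the next was at 9.13. *Xist* was at 11.34 on MS5 replicate 9, where the next MS5 array was at 6.05, and at 6.08 on Con replicate 19, where the next control was at 5.97. Of the 8 genes, the number called lower in MS5 versus MS2 was 5 with all arrays, 3 without MS2 replicate 5, 6 without MS2 replicate 4 and 0 without MS5 replicate 9.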

How the results depend on the processing

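The number of members called lower in MS5 versus Con was 6 or 7 under the alternatives that kept all arrays, and in MS2 versus Con it was 0 under each. In MS5 versus MS2 it fell from 5 to 3 with slide as a term and to 0 with only the 2 groups compared, and it was 5 to 7 under the other alternatives that kept all arrays. Leaving out single arrays gave 5 (without MS5 replicate 9) to 7 for MS5 versus Con, 0 for MS2 versus Con and 0 to 7 for MS5 versus MS2, and 12 to 24 of the 34 other plexus genes for MS5 versus Con. In the settings with a test, the changes that turned sign were all near 0. *Prlr* in MS5 versus Con ranged from -0.17 to 0.084 at its first probe and from -0.11 to 0.0024 at its second, and in MS5 versus MS2 its first probe ranged from -0.33 to 0.052. In MS2 versus Con the ranges were -0.19 to 0.063 for *Enpp2*, which was at 0.049 with array weights, -0.079 to 0.30 for the first *Prlr* probe and -0.0032 to 0.069 for the second. Within slide 1, where no test was run, MS2 versus Con also turned sign for *Enpp2* (0.22), *Ttr* (0.041) and *Sostdc1* (0.15, second probe 0.089). Both *F5* probes did so too (0.013 and 0.0064). Within slide 2 the first *Prlr* probe turned sign in MS5 versus Con (0.095). *Ttr* in MS5 versus Con was called with array weights (-1.87) and when dim probes were dropped (-1.54), which left 40098 probes. Calls use the unadjusted p, so they are not adjusted for the number of probes tested. The limma SE of *Ttr* was 0.707 with dim probes dropped and 0.722 with all probes, at the same change. The cause of the changes of call was not tested. With no offset 269 of all probes were called lower in MS5 versus Con against 102, and with the processed signal 329. No paired analysis by litter was possible because litters are not named in the labels. The 3 mRNA groups share no replicate numbers, and the miR arrays that repeat some of these numbers were not used. The second *F5* probe was well above background on 4 of the 5 MS5 arrays, and whether low signal affected its change was not tested.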
